A study of Mus musculus with 41 samples.

Results

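The 10 genes described here encode the IL-1 family cytokines, their antagonist and receptor accessory chain, and the proteins of the inflammasome that activate and release those cytokines. They were chosen by symbol, and all 10 were found among the 24537 symbols of the mouse count table. Il1a, Il1b and Il18 encode ligands, Il1rn the receptor antagonist, Il1rap the receptor accessory chain, Nlrp3 the sensor, Pycard the adaptor, Casp1 and Casp4 inflammatory caspases, and Gsdmd the pore-forming protein.

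The series profiled C57Bl6 mouse microglia, the resident macrophages of brain tissue, and its poly(A) RNA libraries fall into 6 groups. Microglia were cultured for 7 d with IL34 and TGFβ (2 libraries), for 7 d with IL34 alone (5 libraries), for 24 h with IL34 (3 libraries, of which replicate 2 is labelled 22 h) or for 6 h with IL34 (2 libraries). The references were freshly sorted ex vivo microglia (5 libraries) and unsorted brain lysate (4 libraries). Live CD11b-positive, CD45-low cells had been sorted, and all cultures were in DMEM/F12 with 5% FBS, with IL34 added daily and the medium left unchanged. The sources used here give neither age nor sex of the animals, and the labels do not tie libraries to separate animals, so every p-value measures only the spread between libraries. Chromatin was profiled in the same strain by ATAC-seq at 7 d (2 libraries, of which replicate 2 is labelled 8 d) and ex vivo (2 libraries). Chromatin immunoprecipitation (ChIP) was performed for the histone mark H3K27ac at 7 d and ex vivo, and, in ex vivo cells alone, for the mark H3K4me2 and for PU.1, a transcription factor, with 2 libraries each. Each chromatin condition is represented by 1 peak list made from pooled libraries.

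As background, IL-1α and IL-1β act on the same receptor, which signals only after the accessory chain has joined it, and the antagonist occupies that receptor without starting a signal. IL-1β and IL-18 are made as inactive precursors. An inflammasome forms when a sensor such as NLRP3 recruits the adaptor ASC, the product of Pycard, and caspase-1, which cuts these precursors and gasdermin D, whose fragments form pores in the cell membrane. In macrophages, transcription of the cytokine and sensor genes is a separate, earlier step that NF-κB signalling induces, so mRNA levels do not report cytokine release.

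RNA libraries held 11584561 to 28841472 counts in genes, and no pair of replicates agreed within sampling noise. The 8 microglial markers checked (among them P2ry12, Tmem119, Sall1 and Csf1r) were detected in every group. Their summed level, as counts scaled to the total of the library (CPM), was 15893 to 17618 CPM with TGFβ, and over the culture series 41542 to 49459 CPM ex vivo, 3795 to 3944 CPM at 6 h, 4333 to 4610 CPM at 24 h and 7047 to 10724 CPM at 7 d. In lysate it was 293 to 383 CPM. The ex vivo libraries differed among themselves. Replicates 2 and 3 held 194 and 186 CPM of 8 neutrophil markers and 51.3 and 38.1 CPM of 6 monocyte markers, against 3.37 to 41.1 CPM and 5.77 to 11 CPM in replicates 1, 4 and 5. Replicate 3 also held 165 CPM of 5 astrocyte markers, against 2.06 to 27.5 CPM in the other ex vivo libraries. It had 153 CPM of 5 oligodendrocyte markers (38.6 to 61.6 CPM in the others) and 116 CPM of 6 border macrophage markers (7.65 to 65.7 CPM). The immediate-early gene Egr1 had 9325, 710, 23, 7942 and 4402 CPM in ex vivo replicates 1 to 5.

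**Figure D1:**
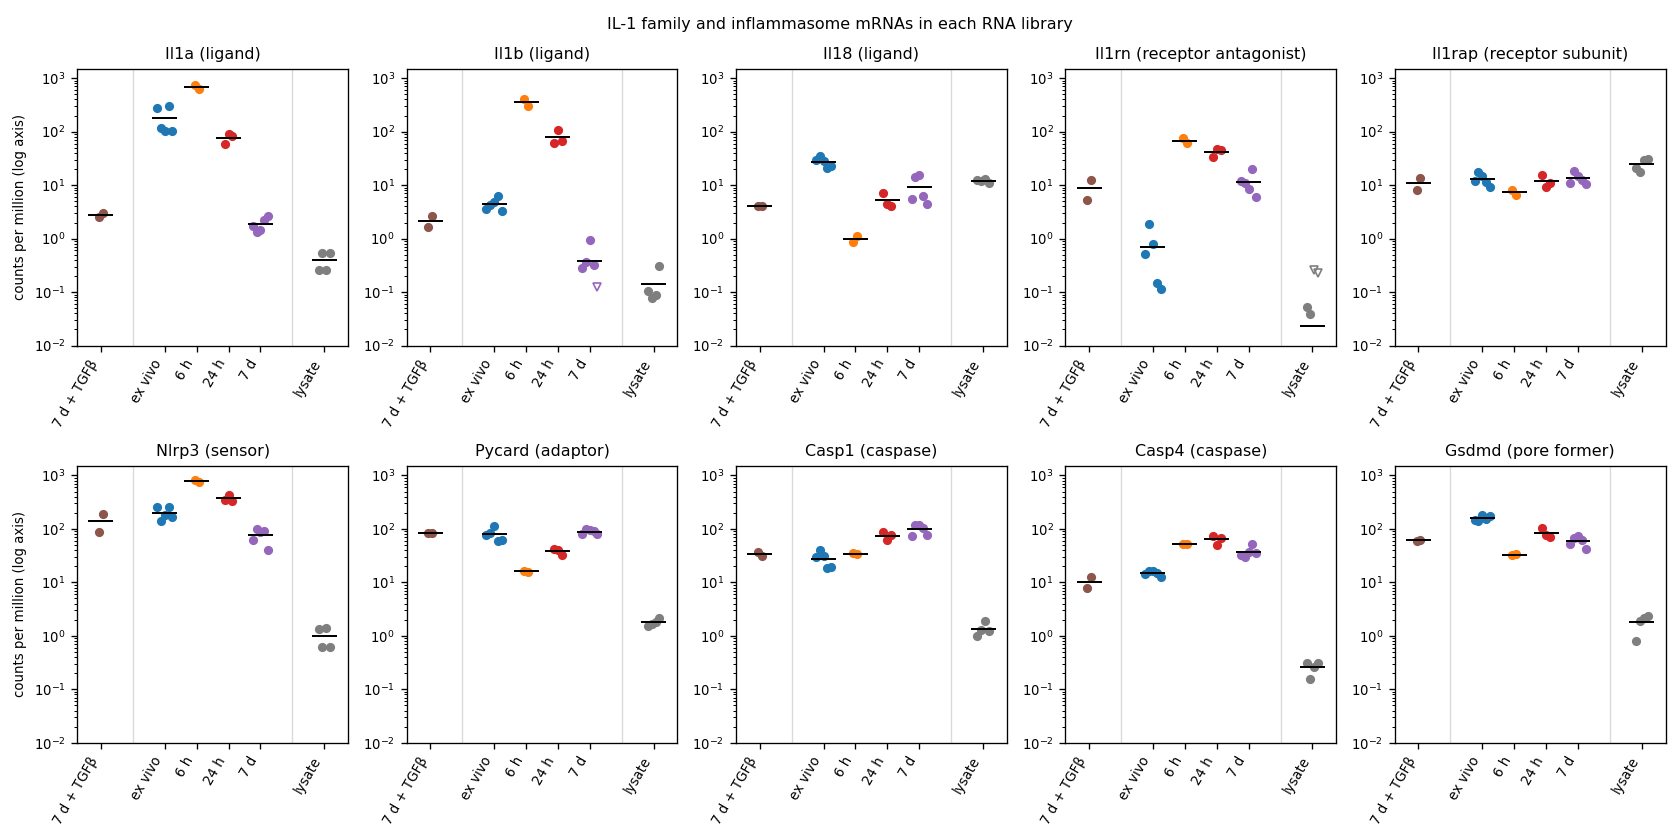
CPM of each of the 10 genes in every RNA library on a log axis, with a bar at each group mean; open triangles are libraries with 0 counts, drawn at the value of 3 counts. Il1a, Il1b, Il1rn and Nlrp3 peaked at 6 h, Il18, Pycard and Gsdmd were lowest there among the microglial groups, and Il1rap stayed between 6.50 and 31.0 CPM in all libraries.

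Promoter windows in the RefSeq tables (GRCm38.p6, 250 bases before to 50 after an annotated start) were found for 9 of the 10 genes; Gsdmd is named only. The windows of Il1a, Il1b and the downstream start of Il1rn are shown because these transcripts moved most and their peaks differed between ex vivo and 7 d microglia, and that of Pycard because it holds 2 motif matches. Each reads 5′ to 3′ on the gene's strand, with capitals marking matches to the motifs searched on both strands: GAGGAAGT for PU.1, TGANTCA for AP-1, TTGCNNAA for C/EBP, and an NF-κB motif. The windows lie at chr2:129309923-129310222 (minus strand) for Il1a, chr2:129371090-129371389 (minus strand) for Il1b, chr2:24345041-24345340 (plus strand) for Il1rn and chr7:127993818-127994117 (minus strand) for Pycard.
Il1a: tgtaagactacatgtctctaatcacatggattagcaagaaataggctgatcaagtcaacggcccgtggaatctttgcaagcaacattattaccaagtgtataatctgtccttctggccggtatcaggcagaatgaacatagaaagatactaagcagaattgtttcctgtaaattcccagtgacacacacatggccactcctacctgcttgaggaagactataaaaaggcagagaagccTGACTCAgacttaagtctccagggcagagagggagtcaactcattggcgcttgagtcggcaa
Il1b: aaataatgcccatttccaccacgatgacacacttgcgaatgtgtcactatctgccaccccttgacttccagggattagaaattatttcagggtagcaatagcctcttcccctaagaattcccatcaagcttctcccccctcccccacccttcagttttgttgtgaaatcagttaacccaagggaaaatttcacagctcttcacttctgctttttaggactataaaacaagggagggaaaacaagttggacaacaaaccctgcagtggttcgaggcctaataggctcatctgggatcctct
Il1rn: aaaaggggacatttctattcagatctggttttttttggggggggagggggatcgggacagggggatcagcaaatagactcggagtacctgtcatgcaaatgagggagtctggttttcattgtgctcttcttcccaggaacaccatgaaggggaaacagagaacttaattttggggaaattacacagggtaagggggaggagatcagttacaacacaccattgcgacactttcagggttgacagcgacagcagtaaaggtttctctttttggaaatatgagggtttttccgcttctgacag
Pycard: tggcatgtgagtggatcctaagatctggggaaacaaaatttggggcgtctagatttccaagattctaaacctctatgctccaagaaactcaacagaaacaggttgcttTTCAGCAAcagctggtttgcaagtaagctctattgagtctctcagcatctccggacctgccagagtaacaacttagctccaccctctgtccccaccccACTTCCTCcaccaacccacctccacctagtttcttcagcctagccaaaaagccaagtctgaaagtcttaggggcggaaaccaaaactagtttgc

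The Il1a window holds an AP-1 match, TGACTCA, 12 bases before the start, and a further AP-1 match, TGAGTCA, lies in the upstream Il1rn window, 141 bases before that start. The Pycard window holds a PU.1 match on the opposite strand, read here as ACTTCCTC, 44 bases before the start, and a C/EBP match on the opposite strand, read as TTCAGCAA, 142 bases before it. These motifs occur in 7.81% (AP-1), 3.20% (PU.1) and 10.8% (C/EBP) of all 32851 promoter windows, so matches of this kind are frequent. None of the 4 motifs, in the exact letters searched, was found in the windows of Il1b, Il18, Il1rap, Nlrp3, Casp1 or Casp4. The NF-κB form searched was a narrow one (0.411% of windows). Sites that vary from it were not looked for, so these windows may still hold NF-κB sites.

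Sorted ex vivo microglia were compared with brain lysate to ask which of these transcripts are carried by microglia. Of the 9 genes tested (Il1rn was too low), 8 were higher and 1 was lower in ex vivo microglia at an adjusted p under 0.05 (edgeR's quasi-likelihood test with Benjamini-Hochberg adjustment over 15335 genes; such genes are called below), where 39.1% of all genes tested were higher and 43.5% lower. Their median log2 fold change was 5.82, beside -0.10 over all genes tested. In bulk tissue, fewer cells of a type and less RNA per cell cannot be told apart, and lysate held 6138 to 7714 CPM of 6 neuronal markers, against 2.34 to 15.3 CPM in the sorted cells.

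Il1a had 281, 115, 102, 305 and 101 CPM in ex vivo microglia, against 0.263, 0.546, 0.259 and 0.532 CPM in lysate. The groups were far apart, and the fitted log2 fold change was 9.08 ± 0.63 (SE, adjusted p = 1.61e-07). The ex vivo libraries split, with replicates 1 and 4 above the other 3, and these were also the replicates with the most Egr1; the part of that response in Il1a was not tested. Nlrp3 was split in the same way, with 260, 141, 184, 256 and 164 CPM ex vivo, against 0.608 to 1.38 CPM in lysate (8.03 ± 0.35, adjusted p = 1.00e-09). Il1b was far less abundant ex vivo than Il1a, at 3.65, 4.24, 4.75, 6.22 and 3.26 CPM, against 0.0780 to 0.304 CPM in lysate (5.28 ± 0.43, adjusted p = 2.48e-07).

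Il18 differed least among the genes that were higher, with 27.1 ± 5.73 CPM ex vivo (SD, n = 5), against 12.2 ± 0.768 CPM in lysate (SD, n = 4) (1.47 ± 0.17, adjusted p = 5.46e-06). Gsdmd, at 139 to 185 CPM ex vivo against 0.789 to 2.36 CPM in lysate, and Pycard, at 60.0 to 115 CPM ex vivo against 1.52 to 2.13 CPM in lysate, were higher by 6.81 ± 0.28 and 5.82 ± 0.23 on the log2 scale (adjusted p = 6.22e-10 and 4.76e-10). Casp4, which in mice detects lipopolysaccharide inside cells, was higher by 6.18 ± 0.26 and Casp1 by 4.70 ± 0.31 (adjusted p = 6.12e-10 and 2.94e-08). Il1rap was the exception: it had 9.28 to 18.0 CPM ex vivo, against 17.5 to 31.0 CPM in lysate, with overlapping ranges (-0.61 ± 0.23, adjusted p = 0.0248). That call was lost without lysate replicate 3 (adjusted p = 0.0733) or 4 (adjusted p = 0.0912), and with total counts in place of TMM factors the median of all genes moved by -0.31 in this comparison. Il1rn had 60 counts in all in the 5 ex vivo libraries and 2 counts in the 4 lysate libraries, a depth-adjusted ratio of 23.4 (exact 95% interval 6.19 to 197, counting error only).

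The culture series was compared with ex vivo microglia to ask how these transcripts move after cells leave the brain. The 17 microglial libraries were fitted together over 13840 genes, and the comparisons with ex vivo share the same 5 ex vivo libraries. At 6 h, 6 of the 10 genes were called higher and 3 lower, where 31.2% of all genes tested were higher and 36.8% lower. The median log2 fold change of the 10 was 1.47, beside -0.17 over all genes. At 24 h, 5 were higher and 4 lower, beside 29.6% and 33.1% of all genes. At 7 d, 3 were higher and 5 lower, beside 34.8% and 35.7% of all genes, and their median log2 fold change was -0.64, beside -0.02. Between 24 h and 6 h, 3 were higher and 3 lower, where 22.0% and 19.8% of all genes were called. Between 7 d and 24 h, 2 were higher and 6 lower, beside 27.2% and 21.6%. With so many genes moving in each comparison, the number of calls alone does not set these 10 apart.

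Scaling mattered most at 6 h. With total counts in place of TMM factors, the median of all genes moved by -0.40 (log2) at 6 h against ex vivo and by 0.44 at 24 h against 6 h. The share of higher genes among all calls moved to 32.7% at 6 h (45.8% with TMM), and to 79.1% at 24 h against 6 h (52.7% with TMM). Fitted fold changes below use TMM and so differ from ratios of the printed CPM, which are scaled to total counts.

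**Figure D2:**
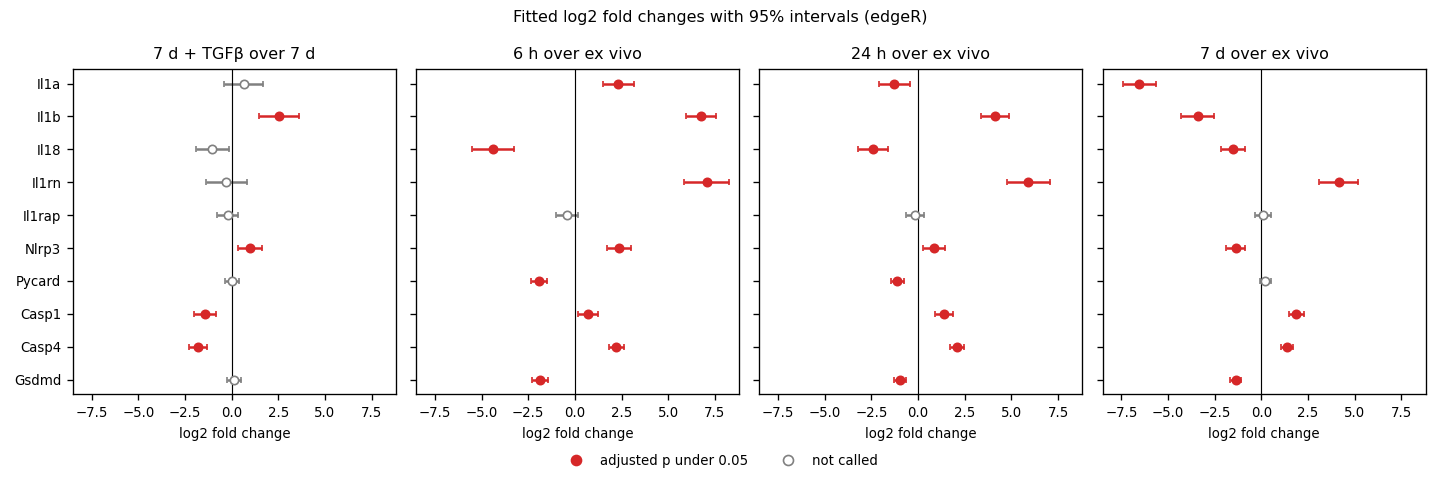
Fitted log2 fold changes of the 10 genes, with 95% intervals, for 7 d with TGFβ over 7 d and for 6 h, 24 h and 7 d over ex vivo; filled red points have an adjusted p under 0.05. At 6 h Il1rn (7.06) and Il1b (6.77) lie farthest to the right and Il18 (-4.37) farthest to the left, and at 7 d Il1a (-6.53) lies farthest to the left.

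Both IL-1 ligands were at their highest at 6 h and were low by 7 d, but they started from different levels. Il1a, whose product is active without inflammasome cleavage, was already abundant ex vivo, at 101 to 305 CPM. It had 760 and 615 CPM at 6 h, 59.7, 89.3 and 83.5 CPM at 24 h, and 1.75, 1.35, 1.42, 2.21 and 2.69 CPM at 7 d. No 2 of these 4 groups overlapped. Against ex vivo, Il1a was 4.98-fold higher at 6 h (log2 fold change 2.32 ± 0.39, adjusted p = 7.59e-05) and 2.43-fold lower at 24 h (-1.28 ± 0.38, adjusted p = 0.00896). The 24 h call was lost without 24 h replicate 1 (-1.11, adjusted p = 0.0505). Between 24 h and 6 h it was 12.1-fold lower (-3.59 ± 0.47, adjusted p = 2.80e-05). At 7 d it was 92.6-fold lower than ex vivo (-6.53 ± 0.42, adjusted p = 1.72e-09).

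Il1b, which encodes the precursor that caspase-1 cuts, had 3.26 to 6.22 CPM ex vivo. It had 415 and 306 CPM at 6 h, 60.6, 106 and 67.8 CPM at 24 h, and 0.285, 0.366, 0.961, 0.321 and 0 CPM at 7 d. The 7 d values correspond to 8, 10, 25, 8 and 0 counts, and 3 counts in the last library would be 0.124 CPM. The groups did not overlap, and 7 d was the lowest of them. Against ex vivo, Il1b was 109-fold higher at 6 h (6.77 ± 0.38, adjusted p = 3.81e-10), 17.3-fold higher at 24 h (4.12 ± 0.34, adjusted p = 3.75e-08) and 10.7-fold lower at 7 d (-3.42 ± 0.41, adjusted p = 2.10e-06). Between 24 h and 6 h it was 6.28-fold lower (-2.65 ± 0.40, adjusted p = 8.65e-05). From 24 h to 7 d it fell by 7.53 ± 0.42 on the log2 scale, and Il1a by 5.25 ± 0.41 (adjusted p = 2.87e-09 and 9.69e-08). Leaving out 7 d replicate 3, which had the most Il1b, moved the 7 d fold change against ex vivo to -4.05 and that against 24 h to -8.16.

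Il18 moved the other way. It had 29.2, 35.2, 27.7, 20.6 and 22.7 CPM ex vivo, 0.858 and 1.12 CPM at 6 h, 7.13, 4.36 and 4.03 CPM at 24 h, and 5.50, 14.2, 15.5, 6.26 and 4.42 CPM at 7 d. Every cultured library lay below every ex vivo library, and 6 h lay below all others. Il18 was 20.7-fold lower at 6 h (-4.37 ± 0.53, adjusted p = 1.41e-06), 5.36-fold lower at 24 h (-2.42 ± 0.38, adjusted p = 3.20e-05) and 2.87-fold lower at 7 d (-1.52 ± 0.30, adjusted p = 2.57e-04). It was higher at 24 h than at 6 h (1.95 ± 0.51, adjusted p = 0.00534), a call lost without 6 h replicate 1 (adjusted p = 0.0641). The 7 d libraries split, with replicates 2 and 3 above the other 3, so that the difference between 7 d and 24 h (0.90 ± 0.36, adjusted p = 0.0462) moved to 0.18 without both of these replicates (adjusted p = 0.591). That call was also lost without 24 h replicate 2 (adjusted p = 0.147) or 3 (0.185), and without 7 d replicate 2 (0.109) or 3 (0.125). Total counts (0.0782), RLE factors (0.0503), no filter (0.0602) and only the 2 groups in the fit (0.131) ended it too. Without 7 d replicates 2 and 3 the 7 d fold change against ex vivo was -2.23.

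The receptor antagonist gene Il1rn rose with the ligands and outlasted them. It was near background ex vivo, with 0.515, 1.86, 0.776, 0.150 and 0.115 CPM (11, 28, 17, 2 and 2 counts). It had 74.6 and 62.1 CPM at 6 h, 34.1, 46.8 and 45.1 CPM at 24 h, and 11.9, 11.2, 8.46, 20.0 and 6.00 CPM at 7 d. The groups did not overlap, and all cultured libraries lay above all ex vivo libraries. Il1rn was 133-fold higher at 6 h (7.06 ± 0.56, adjusted p = 2.16e-08), 60.2-fold higher at 24 h (5.91 ± 0.53, adjusted p = 1.08e-07) and 17.7-fold higher at 7 d (4.14 ± 0.50, adjusted p = 2.27e-06). From 24 h to 7 d it fell by 1.77 ± 0.43 on the log2 scale (adjusted p = 0.00331), and 24 h against 6 h was not called (-1.15 ± 0.54, adjusted p = 0.0989), although it was with only those 2 groups in the fit (-1.10, adjusted p = 1.79e-04).

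The ex vivo libraries with the most Il1rn, replicates 2 and 3, were those with the most neutrophil markers. The 8 neutrophil markers were all detected ex vivo, and summed to 1.03 to 1.44 CPM at 6 h (Ly6g and Retnlg at 0), 2.88 to 12.8 CPM at 24 h (Ly6g at 0) and 1.89 to 4.88 CPM at 7 d (Ly6g and Retnlg at 0). Without ex vivo replicate 2, the log2 fold changes of Il1rn were 7.74 at 6 h, 6.59 at 24 h and 4.82 at 7 d. Without replicates 2 and 3 they were 8.25, 7.11 and 5.31. The part of these markers in the Il1rn values was not tested.

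The accessory chain gene Il1rap was not called in any step of the culture series. It had 9.28 to 18.0 CPM ex vivo, 8.23 and 6.50 CPM at 6 h, 9.28 to 15.2 CPM at 24 h and 10.5 to 18.2 CPM at 7 d. Both 6 h libraries lay below the ex vivo range (-0.42 ± 0.27, adjusted p = 0.182), and with total counts in place of TMM factors that difference was -0.83 and called (adjusted p = 0.0228). Its log2 fold change was -0.18 ± 0.23 at 24 h (95% interval -0.67 to 0.32) and 0.10 ± 0.20 at 7 d (95% interval -0.33 to 0.52). It was 0.24 ± 0.29 at 24 h against 6 h (adjusted p = 0.541) and 0.28 ± 0.23 at 7 d against 24 h (adjusted p = 0.344).

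The balance of ligand and antagonist transcripts was compared within libraries, on the deposited TPM, the length-adjusted transcript abundance per library. With TGFβ the ratio of Il1b to Il1rn was 0.382 and 0.577. In the culture series it was 4.22 to 76.9 ex vivo, where both were low, 9.12 to 10.3 at 6 h, 2.78 to 4.20 at 24 h and 0.0296 to 0.210 in the 4 libraries with Il1b counts at 7 d. The ligand transcript thus exceeded the antagonist transcript in every ex vivo, 6 h and 24 h library and was below it in every 7 d library, with or without TGFβ. The ratio of Il1a to Il1b was 14.6 to 52.5 ex vivo, 1.25 and 1.37 at 6 h, 0.573 to 0.840 at 24 h and 1.01 to 4.69 at 7 d. Il1a was the main IL-1 transcript ex vivo, and both were of like abundance at 6 h and 24 h. Gm14023 overlaps Il1a and Il1bos overlaps Il1b in the annotation, and the sources used here do not say whether counting used strand, so reads of these pairs cannot be told apart.

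**Figure D3:**
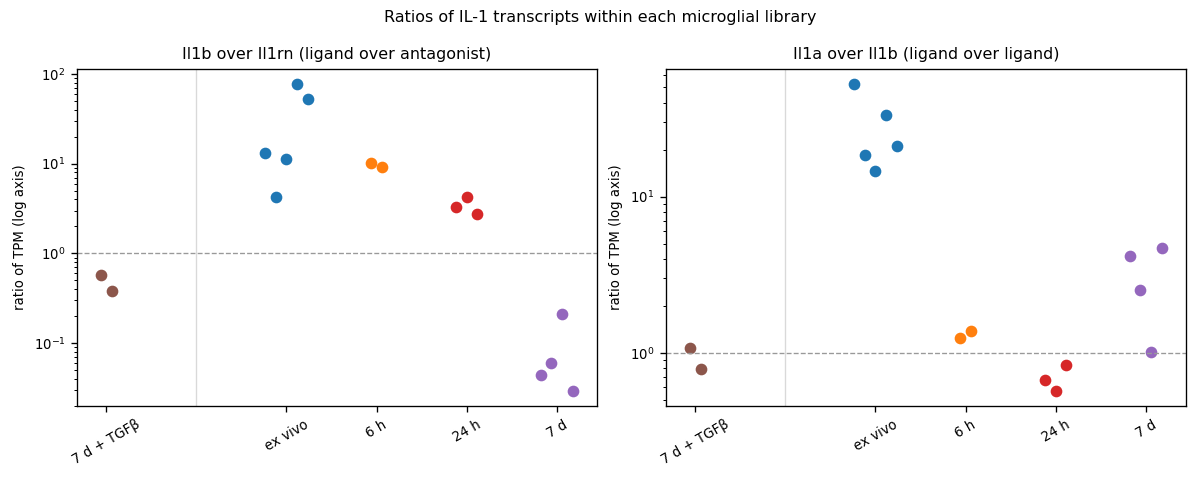
Ratios of TPM within each microglial library on log axes, Il1b over Il1rn at left and Il1a over Il1b at right, with a dashed line at equality; the 7 d library with no Il1b counts is not drawn. Il1b over Il1rn lies above 1 ex vivo, at 6 h and at 24 h, and below it at 7 d with and without TGFβ.

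The sensor gene Nlrp3 followed the ligands at 6 h but kept a higher floor. It had 141 to 260 CPM ex vivo, 814 and 762 CPM at 6 h, 351, 437 and 333 CPM at 24 h, and 61.1, 97.5, 86.7, 90.8 and 40.6 CPM at 7 d. The groups did not overlap. Nlrp3 was 5.15-fold higher at 6 h (2.37 ± 0.29, adjusted p = 2.15e-06), 1.80-fold higher at 24 h (0.85 ± 0.27, adjusted p = 0.0118) and 2.59-fold lower at 7 d (-1.37 ± 0.24, adjusted p = 9.76e-05). Nlrp3 was lower at 24 h than at 6 h (-1.52 ± 0.34, adjusted p = 0.00191) and lower at 7 d than at 24 h (-2.22 ± 0.27, adjusted p = 6.42e-06). The 24 h call against ex vivo was lost without 24 h replicate 2 (0.73, adjusted p = 0.0576) and without ex vivo replicates 2 and 3 (0.65, adjusted p = 0.0666).

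Pycard, which encodes the adaptor ASC, fell where Nlrp3 rose. It had 78.3, 85.4, 115, 60.0 and 62.3 CPM ex vivo, 16.1 and 15.8 CPM at 6 h, 41.9, 39.7 and 31.8 CPM at 24 h, and 79.6, 98.5, 96.4, 90.3 and 78.5 CPM at 7 d. The 6 h and 24 h libraries lay below all others, and the 7 d range lay within the ex vivo range. Pycard was 3.78-fold lower at 6 h (-1.92 ± 0.20, adjusted p = 2.96e-07) and 2.17-fold lower at 24 h (-1.12 ± 0.16, adjusted p = 1.61e-05). At 7 d it was not called (0.21 ± 0.14, adjusted p = 0.174), although it was without ex vivo replicate 3 (0.33, adjusted p = 0.0213). Between 24 h and 6 h it was higher by 0.80 ± 0.20 (adjusted p = 0.00477; 0.0510 without 6 h replicate 2), and between 7 d and 24 h by 1.33 ± 0.17 (adjusted p = 7.49e-06).

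Casp1 and Casp4, neighbouring genes on chromosome 9, were both higher in culture, with different timing. Casp1 had 29.2, 40.7, 31.7, 18.2 and 19.5 CPM ex vivo, 35.3 and 33.4 CPM at 6 h, 85.9, 60.9 and 77.0 CPM at 24 h, and 74.7, 118, 119, 105 and 77.6 CPM at 7 d. The 24 h and 7 d libraries lay above all ex vivo libraries, whereas the 6 h libraries lay among them. Casp1 was 2.61-fold higher at 24 h (1.39 ± 0.22, adjusted p = 2.96e-05) and 3.69-fold higher at 7 d (1.88 ± 0.20, adjusted p = 2.80e-07). Its 6 h call (0.71 ± 0.25, adjusted p = 0.0177) was lost with total counts in place of TMM factors (0.30, adjusted p = 0.321) and without 6 h replicate 1 (0.67, adjusted p = 0.0903). Between 24 h and 6 h it was not called (0.68 ± 0.28, adjusted p = 0.0616), although it was with total counts (1.12, adjusted p = 0.00581) and without 24 h replicate 2 (0.81, adjusted p = 0.0471). Between 7 d and 24 h it was not called (0.50 ± 0.22, adjusted p = 0.0744).

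Casp4 had 14.1, 16.4, 16.6, 14.9 and 12.5 CPM ex vivo, 52.5 and 53.0 CPM at 6 h, 74.9, 50.0 and 66.6 CPM at 24 h, and 32.4, 29.7, 37.2, 51.1 and 35.0 CPM at 7 d. Every cultured library lay above every ex vivo library, and 7 d replicate 4 reached the 24 h range. It was 4.68-fold higher at 6 h (2.23 ± 0.19, adjusted p = 2.54e-08), 4.18-fold higher at 24 h (2.06 ± 0.18, adjusted p = 2.65e-08) and 2.60-fold higher at 7 d (1.38 ± 0.16, adjusted p = 8.39e-07). Between 24 h and 6 h it was not called (-0.16 ± 0.22, adjusted p = 0.587), and the sign turned with total counts (0.28). Between 7 d and 24 h it fell by 0.68 ± 0.17 on the log2 scale (adjusted p = 0.00408).

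Gsdmd, the substrate that the caspases turn into a pore, was lower throughout culture. It had 146, 139, 185, 156 and 176 CPM ex vivo, 31.9 and 34.4 CPM at 6 h, 103, 78.1 and 71.8 CPM at 24 h, and 51.0, 68.3, 72.9, 63.0 and 42.7 CPM at 7 d. All cultured libraries lay below all ex vivo libraries, and those of 6 h were the lowest. Gsdmd was 3.67-fold lower at 6 h (-1.87 ± 0.19, adjusted p = 2.04e-07), 1.95-fold lower at 24 h (-0.97 ± 0.16, adjusted p = 4.12e-05) and 2.59-fold lower at 7 d (-1.37 ± 0.13, adjusted p = 1.05e-07). It was higher at 24 h than at 6 h by 0.91 ± 0.19 (adjusted p = 0.00133). Between 7 d and 24 h it was lower by a log2 fold change of -0.41 ± 0.15 (adjusted p = 0.0327), a call lost without 24 h replicate 1 (adjusted p = 0.187), 7 d replicate 1 (0.0661) or 7 d replicate 5 (0.0680).

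Cultures with TGFβ and IL34 were compared with IL34 alone at 7 d, with only 2 TGFβ libraries. Of the 10 genes, 2 were called higher and 2 lower with TGFβ, where 9.57% of all genes tested were higher and 6.52% lower. With total counts in place of TMM factors the share of higher genes among all calls was 47.2% (59.5% with TMM). Both caspase genes fell. Casp1 had 36.6 and 31.1 CPM with TGFβ, against 74.7, 118, 119, 105 and 77.6 CPM with IL34 alone, and was 2.71-fold lower (-1.44 ± 0.27, adjusted p = 0.00129). Casp4 had 7.99 and 12.3 CPM with TGFβ, against 32.4, 29.7, 37.2, 51.1 and 35.0 CPM with IL34 alone, and was 3.44-fold lower (-1.78 ± 0.23, adjusted p = 3.22e-05). Neither pair of ranges overlapped.

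Il1b had 1.63 and 2.60 CPM with TGFβ, against 0 to 0.961 CPM with IL34 alone. Its ranges did not overlap, and it was 5.76-fold higher (2.52 ± 0.51, adjusted p = 0.00253), at a level still low. That call was lost without TGFβ replicate 2 (2.22, adjusted p = 0.0555) and with only the 2 groups in the fit (2.56, adjusted p = 0.0806), and without 7 d replicate 3 the difference was 3.15 (adjusted p = 2.63e-04). Nlrp3 had 88.0 and 188 CPM with TGFβ, against 40.6 to 97.5 CPM with IL34 alone. The ranges overlapped, TGFβ replicate 2 alone lay above the IL34 libraries, and the call (0.96 ± 0.30, adjusted p = 0.0386) was lost without that replicate (0.40, adjusted p = 0.602), without 7 d replicate 1 (adjusted p = 0.0718) and without 7 d replicate 5 (adjusted p = 0.0571). It was also lost with total counts (adjusted p = 0.0693), with only the 2 groups in the fit (adjusted p = 0.0940) and with limma on log2(TPM + 1) (adjusted p = 0.108).

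Il18 had 4.14 and 4.06 CPM with TGFβ, just below the 4.42 to 15.5 CPM with IL34 alone, and was not called (-1.05 ± 0.42, adjusted p = 0.103), although it was without 7 d replicate 5 (-1.21, adjusted p = 0.0436). Pycard (0.03, 95% interval -0.35 to 0.41) and Gsdmd (0.12, 95% interval -0.24 to 0.49) were not called, and the sign for Pycard turned with total counts (-0.07). Il1a (0.65, 95% interval -0.39 to 1.70), Il1rn (-0.29, -1.39 to 0.82) and Il1rap (-0.22, -0.79 to 0.34) had wider intervals and were not called. The 6 border macrophage markers summed to 8.53 and 8.54 CPM with TGFβ (Lyve1 at 0), against 54.8 to 120 CPM with IL34 alone (none at 0), and their part in these differences was not tested.

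Set against ex vivo microglia, the TGFβ cultures had 1 of the 10 genes called higher and 3 lower, where 28.3% of all genes tested were higher and 27.5% lower. Total counts moved the median of all genes by -0.15 in this comparison. Il1a remained far below, at 2.55 and 3.02 CPM with TGFβ against 101 to 305 CPM ex vivo (-5.88 ± 0.61, adjusted p = 1.28e-06). Il18 (-2.57 ± 0.45, adjusted p = 1.78e-04) and Gsdmd (58.9 and 62.4 CPM with TGFβ; -1.25 ± 0.18, adjusted p = 3.00e-05) were also lower. Il1rn, with 5.23 and 12.6 CPM, was higher (3.86 ± 0.56, adjusted p = 3.74e-05), by 3.17 without TGFβ replicate 2 and by 4.54 without ex vivo replicate 2. Il1b was not called (-0.89 ± 0.45, adjusted p = 0.102), and neither were Casp1 (0.44 ± 0.25, adjusted p = 0.138) and Casp4 (-0.40 ± 0.21, adjusted p = 0.119). Nlrp3 (-0.41 ± 0.32, adjusted p = 0.29) and Il1rap (-0.13 ± 0.27, adjusted p = 0.703) were not called. With limma on log2(TPM + 1) Nlrp3 was called lower (-0.79, adjusted p = 0.0458), whereas without TGFβ replicate 1 its difference was 0.0085. Pycard was not called (0.24 ± 0.18, adjusted p = 0.259) except without ex vivo replicate 3 (0.38, adjusted p = 0.0413). Casp1 was called without ex vivo replicate 2 (0.61, adjusted p = 0.0290). Casp4 was called lower with total counts (-0.55, adjusted p = 0.0451) and with limma on log2(TPM + 1) (-0.73, adjusted p = 0.00777).

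The order of the 10 transcripts changed with each condition. On mean TPM, ex vivo microglia ranked Il1a (170 ± 98.8), Gsdmd (166 ± 17.3) and Nlrp3 (91.9 ± 25.6) first and Il1rn (0.505 ± 0.539) last (SD, n = 5); the first pair overlapped. At 6 h Il1a (649 ± 106), Il1b (500 ± 114) and Nlrp3 (364 ± 22.5) led and Il18 (2.13 ± 0.371) was last (SD, n = 2). At 24 h Nlrp3 led at 161 ± 21.4, ahead of Il1b at 101 ± 29.7 (SD, n = 3). At 7 d the effector genes Casp1 (107 ± 19.2), Pycard (68.0 ± 4.48) and Gsdmd (55.0 ± 9.57) led, and Il1a (1.58 ± 0.520) and Il1b (0.462 ± 0.406) were the lowest (SD, n = 5). With TGFβ Pycard (63.1 ± 0.180), Nlrp3 (54.7 ± 28.0) and Gsdmd (54.6 ± 2.16) led, with Il1b and Il1a again last at 2.51 ± 0.809 and 2.25 ± 0.262 (SD, n = 2). In lysate Il18 (24.95 ± 1.79) and Il1rap (9.60 ± 2.69) were the most abundant (SD, n = 4).

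Across conditions, several neighbouring levels were not separated. Il1a with and without TGFβ, Il1b at 7 d and in lysate, Il1rn with and without TGFβ, Pycard ex vivo, at 7 d and with TGFβ, and Gsdmd at 7 d with and without TGFβ had overlapping TPM ranges. Pearson's r of log2 CPM, here on TMM library sizes, was taken over the 17 microglial libraries. It was 0.96 between Il1b and Nlrp3, 0.86 between Il18 and Gsdmd, -0.90 between Il1b and Pycard and -0.85 between Il18 and Il1rn. These values are descriptions over libraries that share 5 groups. Among 7940 other named genes, those most like Il1b were Map1b, Hivep3, Shmt1, Cish and Ptprf (r of 0.96 for each), and those most like Nlrp3 were Traf2, Gpr4, Stk40, Spty2d1 and Shmt1 (0.95 for each). Those most like Il18 were Tmem260 (0.97), Trub1, Dctn5, Glb1l and Zfp141 (0.96 for each).

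Other genes of the pathway were followed as lists. Of 8 IL-1 family receptor genes, 6 were tested in culture, and at 6 h 1 was called higher and 2 lower, beside 31.2% and 36.8% of all genes. Il1r1, the signalling receptor for both IL-1 ligands, averaged 15.8 CPM at 6 h and 3.20 CPM ex vivo (2.72 ± 0.43, adjusted p = 2.89e-05), and at 7 d it was lower than ex vivo (1.08 CPM; -1.50 ± 0.38, adjusted p = 0.00201). Il1rl1, the IL-33 receptor, was lower at 6 h (1.40 CPM, against 24.1 CPM ex vivo; -3.71 ± 0.75, adjusted p = 3.94e-04), and Il1rl2, the IL-36 receptor, at 7 d (14.2 CPM, against 50.6 CPM ex vivo; -1.76 ± 0.23, adjusted p = 3.73e-06). At 7 d 4 of the 6 were lower, beside 35.7% of all genes. Il18bp, which binds and blocks IL-18, averaged 10.5 CPM at 6 h and 4.64 CPM ex vivo (1.58 ± 0.26, adjusted p = 3.87e-05), and was the only 1 of 7 further ligand and decoy genes abundant enough to test in culture.

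Of 13 genes acting below the receptor, 6 were higher and 2 lower at 6 h, beside 31.2% and 36.8% of all genes, and 3 were higher and 7 lower at 7 d, beside 34.8% and 35.7%. Nfkbia, an NF-κB inhibitor that NF-κB itself induces, averaged 649 CPM at 6 h and 170 CPM ex vivo (2.31 ± 0.36, adjusted p = 3.35e-05), and Tollip (1.35 ± 0.12, adjusted p = 5.55e-08) and the receptor kinase Irak2 (1.17 ± 0.14, adjusted p = 8.40e-07) were also higher. Irak3, a negative regulator of this signalling, was higher at 24 h (31.2 CPM, against 6.65 CPM ex vivo; 2.19 ± 0.21, adjusted p = 9.65e-08) and at 7 d (16.5 CPM; 1.38 ± 0.19, adjusted p = 5.57e-06). Tab1 was lower at 6 h (-2.01 ± 0.26, adjusted p = 2.67e-06) and Traf6 at 7 d (-0.96 ± 0.12, adjusted p = 2.82e-06).

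Most other inflammasome sensors and partners tested were lower in culture. Of 11, 1 was higher and 8 lower at 6 h, beside 31.2% and 36.8% of all genes, and 1 was higher and 9 lower at 7 d, beside 34.8% and 35.7%. The gene that was higher at 6 h was the pyrin gene Mefv, named here after its values were seen. It averaged 0.834 CPM at 6 h and 0.226 CPM ex vivo (2.28 ± 0.92, adjusted p = 0.0367), and at 7 d it was lower, at 0.0379 CPM, with overlapping ranges (-2.31 ± 0.99, adjusted p = 0.0455). Nlrp1b averaged 1.59 CPM at 6 h and 135 CPM ex vivo (-6.00 ± 0.37, adjusted p = 4.35e-10), Nlrp1a 0.846 CPM at 6 h and 27.2 CPM ex vivo (-4.60 ± 0.29, adjusted p = 5.23e-10), and Naip5, a receptor for bacterial flagellin, 14.3 CPM at 6 h and 225 CPM ex vivo (-3.56 ± 0.24, adjusted p = 1.47e-09). At 7 d P2rx7, the ATP-gated channel that can trigger NLRP3, averaged 104 CPM, against 469 CPM ex vivo (-2.11 ± 0.11, adjusted p = 9.89e-11). With TGFβ 4 of the 11 were higher than with IL34 alone and 1 lower, beside 9.57% and 6.52% of all genes. Naip2 averaged 262 CPM with TGFβ and 97.2 CPM with IL34 alone (1.51 ± 0.17, adjusted p = 9.63e-06), and Nlrp1b 29.0 CPM with TGFβ and 9.33 CPM with IL34 alone (1.74 ± 0.24, adjusted p = 6.22e-05). The Naip and Nlrp1 genes are near-identical families, so reads may have been split between copies.

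Of 7 other caspase and pore genes tested, 1 was higher and 4 lower at 6 h, beside 31.2% and 36.8% of all genes. Ninj1, whose product ruptures the membrane of dying cells, averaged 571 CPM at 6 h and 47.4 CPM ex vivo (3.99 ± 0.26, adjusted p = 8.26e-10), and was still higher at 7 d (1.52 ± 0.21, adjusted p = 7.39e-06). Casp12, the neighbour of Casp4, was lower at 6 h (0.0195 CPM, against 2.79 CPM ex vivo; -6.37 ± 1.00, adjusted p = 2.59e-05), and Casp6 likewise (-2.79 ± 0.26, adjusted p = 5.54e-08). Of 6 cytokine and response genes that IL-1 can induce, 3 were higher at 6 h, beside 31.2% of all genes. Ptgs2 averaged 2062 CPM at 6 h and 1.91 CPM ex vivo (10.46 ± 0.75, adjusted p = 8.53e-09), and the chemokine gene Cxcl2 434 CPM at 6 h and 0.354 CPM ex vivo (10.69 ± 0.93, adjusted p = 7.55e-08), whereas Ccl2 was not called (-2.62 ± 1.23, adjusted p = 0.0722). From 24 h to 7 d 5 of the 6 fell, beside 21.6% of all genes.

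Il1a and Il1b are neighbours on chromosome 2 and are read from the same strand. In GRCm38.p6, which shares the coordinates of the mm10 build of the peak lists, Il1a spans chr2:129299609-129310186 and Il1b chr2:129364569-129371164, with 54382 bases between them. Peaks were examined from 50 kb below Il1a to 50 kb above Il1b, over chr2:129249609-129421164 (171556 bases). With no scores in the lists and 1 pooled list per condition, no difference between conditions could be tested.

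ATAC peaks were as numerous at 7 d as ex vivo, 18 in each list, and 13 of the 18 in each overlapped a peak of the other. H3K27ac differed in breadth: 9 peaks at 7 d covered 6172 bases (3.60% of the region), against 8 peaks ex vivo that covered 31650 bases (18.4%). Across the genome the 7 d list held 31349 H3K27ac peaks over 50.9 Mb and the ex vivo list 24520 peaks over 61.3 Mb. Of the 9 H3K27ac peaks at 7 d, 6 overlapped an ex vivo peak, and 5 of the 8 ex vivo peaks overlapped a 7 d peak. Near the Il1a start, the 7 d list had, inside the gene, a 501-base H3K27ac peak at chr2:129309318-129309818, whereas the ex vivo list had a 12073-base domain across the start at chr2:129304131-129316203. Near the Il1b start, the 7 d list had a 501-base peak inside the gene (chr2:129370601-129371101). The ex vivo peak spanned 4519 bases across the start (chr2:129370784-129375302). A width of 501 bases was the smallest in either H3K27ac list. The median H3K27ac peak spanned 1117 bases in the 7 d list and 1777 bases in the ex vivo list. Per the file headers, the 7 d list rested on 27568358 tags with an approximate IP efficiency of 32.13%, and the ex vivo list on 45586997 tags with one of 64.04%. The part of depth and enrichment in these widths was not tested.

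**Figure D4:**
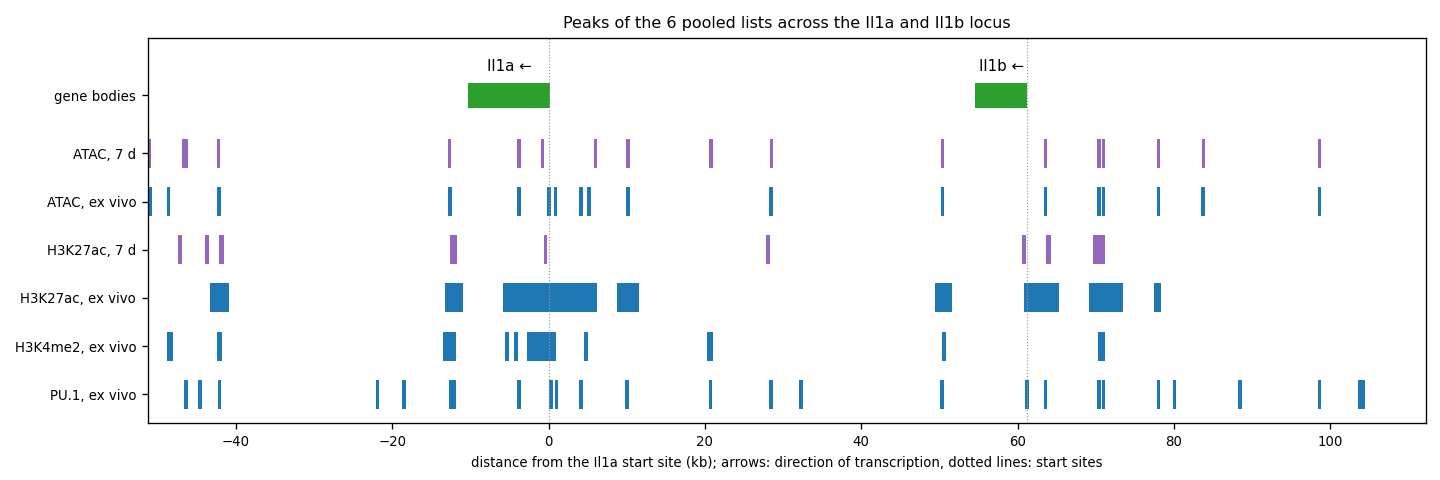
Positions of peaks of the 6 pooled lists across the Il1a and Il1b locus, by distance from the Il1a start in kb, with gene bodies in green and dotted lines at the start sites. H3K27ac covers 6172 bases at 7 d and 31650 bases ex vivo, with an ex vivo block of 12073 bases over the Il1a start.

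PU.1, the lineage factor of macrophages, had 26 peaks in the region ex vivo, of which 13 overlapped an ex vivo ATAC peak, and H3K4me2 had 10. A PU.1 peak lay over the Il1b start (chr2:129371091-129371291), and another upstream of the Il1a start, centred at -265 bases (chr2:129310137-129310337). Neither promoter window shown above holds GAGGAAGT. The Il1a window ends inside its PU.1 peak, so the rest of that peak was not searched. The Il1a window also held an ex vivo ATAC peak at chr2:129309921-129310121, over its AP-1 match, and an H3K4me2 peak, and no peak of either 7 d list. The Il1b window held no ATAC peak in either list and no H3K4me2 peak. The nearest ATAC peaks upstream of Il1b were centred at -2408 bases (7 d) and -2433 bases (ex vivo) from the start, where a PU.1 peak and both H3K27ac lists also overlapped.

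At the other members, promoter windows were compared between lists. Gsdmd has no promoter window and could not be scored. Among the other members, a peak overlapped at least 1 window of 7 genes for ATAC at 7 d and of 7 for ATAC ex vivo. Of all 32851 windows, 37.3% held an ATAC peak at 7 d and 36.7% ex vivo. For H3K27ac these were 8 genes at 7 d (32.8%) and 8 ex vivo (35.6%), for H3K4me2 8 (46.0%) and for PU.1 7 (23.5%). The H3K27ac count at 7 d includes Il1b, whose window met only the end of a peak centred 288 bases inside the gene. Genes with several windows had several chances to overlap. The equal ATAC counts hide a difference in genes. An ATAC peak lay in the Il18 window at 7 d only (chr9:50554719-50554919), although the Il18 transcript was lower at 7 d than ex vivo. In the Il1a window an ATAC peak lay ex vivo only. H3K27ac over the downstream Il1rn start was present at 7 d only, as a peak of 1318 bases at chr2:24344535-24345852, while ATAC peaks lay there in both lists, and the upstream Il1rn window held no peak of any list. The Casp4 promoter peak of H3K27ac spanned 4880 bases at 7 d and 1705 bases ex vivo, and that of Casp1 3675 bases at 7 d and 2390 bases ex vivo. The Il18 peak was wider ex vivo, as was the median peak of the list, with 4699 bases at 7 d and 5891 bases ex vivo, as were those of Nlrp3 (7274 bases at 7 d and 8064 ex vivo) and Pycard (2324 bases at 7 d and 3096 ex vivo). At Il1rap the peaks spanned 1017 bases at 7 d and 927 bases ex vivo.

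Within 20 kb of the gene bodies, the 10 genes had 71 distinct ATAC peaks at 7 d and 60 ex vivo, 24 H3K27ac peaks at 7 d and 33 ex vivo, 31 H3K4me2 peaks and 69 PU.1 peaks, with peaks shared by the neighbours Casp1 and Casp4 counted once. The whole ATAC lists held 112977 peaks at 7 d and 90674 ex vivo. Il1rn had 9 ATAC peaks at 7 d and 4 ex vivo, and 2 H3K27ac peaks at 7 d and 1 ex vivo. Il1rap, which was not called in culture, also had 9 ATAC peaks at 7 d and 4 ex vivo, with 1 H3K27ac peak in each list. Nlrp3 had the most PU.1 peaks, 14, beside a median of 4 over 21883 genes. Every one of the 10 genes had a peak of every list within 20 kb. The share of all genes with a peak ran from 64.3% for the ex vivo H3K27ac list to 83.7% for the 7 d ATAC list, each list taken alone.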

How the data were processed

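Poly(A) RNA-seq of 21 mouse libraries was deposited by the authors as a table of whole-number read counts per gene symbol and a table of TPM. The submitters' processing notes name STAR, HOMER, Bowtie2, bedtools, limma and R 3.3.1, with builds mm10 and hg38; the sources used here do not state the counting strand or what "trimmed" means for the TPM table. The authors deposited 1 BED peak list per chromatin condition from pooled libraries, with no scores.

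Counts were tested with edgeR 4.0.16 in R 4.3.3 (TMM, genes kept by filterByExpr, robust quasi-likelihood F test, Benjamini-Hochberg adjustment over all genes tested, threshold 0.05). The 17 microglial libraries formed 1 fit, and the ex vivo and lysate libraries another. CPM are counts over each library's total, and a count of 0 was drawn at 3 counts. Most alike genes were ranked by Pearson's r of log2 CPM (prior count 2) among genes reaching a mean of 20 CPM in a group. These correlations and this cut used CPM on TMM library sizes. Peaks were shifted to 1-based positions and overlaps needed 1 base. Alternatives were DESeq2 1.42.0, RLE and total-count scaling, no filter, 2-group fits, limma 3.58.1 on log2(TPM + 1) and log2(TPM + 0.1), a replicate block, libraries left out, and other peak windows. The code was tested on simulated data.

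The rule for named genes took all 10 members, and of each pathway list at most 4 called genes, by lowest adjusted p, and at most 2 uncalled ones; Mefv was added after its values were seen. The members and lists were chosen with earlier results of these data known. Counting intervals and the floor of 3 counts cover counting error only. ChIP input libraries were not used here.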

Additional observations from a re-analysis of the deposited data

Results flagged for a closer look

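Il1b in lysate replicate 4 stood apart from the other 3 lysate libraries, at 0.304 CPM (4 counts), against 0.0780 to 0.105 CPM. Its gap to the nearest library was 0.88 of the range of the group, above the critical value of 0.829 for 4 samples. Chance gives about 1 such case in 20, and 30 sets of a gene and a group were examined.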

How the results depend on the processing

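Of 79 fitted fold changes of the members, 51 kept their direction and call under every alternative run, 21 lost or gained a call under at least 1, and 9 changed sign, all of them not called. Taken over all groups, replicate numbers did not pair the libraries. Over 25 same-numbered pairs the correlation of deviations had a median of -0.0066, and 5 exceeded 0.1. Of 86 other-numbered pairs, 6 exceeded 0.1, with a highest value of 0.4176. Same-numbered pairs of 24 h and 6 h had 0.2351 and 0.2271, and those of 7 d with and without TGFβ 0.1125 and 0.3752. A median over all groups cannot exclude pairing within particular groups, which was not tested. With the replicate block, members called were 8 (ex vivo against lysate), 8 (6 h), 8 (24 h) and 8 (7 d against ex vivo), 6 (24 h against 6 h), 8 (7 d against 24 h), 3 (TGFβ against 7 d) and 4 (TGFβ against ex vivo). The block ended the calls of Il1rap against lysate (adjusted p = 0.119), Casp1 at 6 h (0.0575), Il1a at 24 h (-0.92, 0.0542), Gsdmd at 7 d against 24 h (0.0781) and Nlrp3 with TGFβ against 7 d (0.0783), and made a call for Casp1 at 7 d against 24 h (0.0218).

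For TGFβ against 7 d, members called numbered 2 with only the 2 groups in the fit, and 2 to 4 with a library left out (main count 4); genes called ranged from 1260 to 2326 (2227). For 24 h against 6 h, genes called ranged from 3615 to 4933 with a library left out (5779). With limma on log2(TPM + 1), 7 members were called for TGFβ against ex vivo (4 with edgeR). Summed CPM of the members at 6 h was 2570 on TMM sizes (2049 on totals). The mean log2 ratio of Il1b to Il1rn was -1.09 (TGFβ), 3.28 (6 h) and 1.75 (24 h) on TPM, the scale of the ratios above. On counts, without adjustment for length, it was -1.98 (TGFβ), 2.39 (6 h) and 0.87 (24 h).

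Signs that turned were as follows. Il1rap at 24 h against ex vivo was 0.0369 without ex vivo replicates 2 and 3. At 7 d against ex vivo Il1rap was -0.10 on log2(TPM + 1) with or without a filter, -0.11 on log2(TPM + 0.1), -0.10 without 7 d replicates 2 and 3, and -0.0104 to 0.23 with 1 library left out. Casp4 at 24 h against 6 h was 0.28 on total counts and 0.16 on both TPM scales. For TGFβ against 7 d, Pycard was -0.0671 on total counts, -0.0806 with the replicate block, -0.10 and -0.11 on TPM, and -0.0116 to 0.10 with 1 library left out; Il1rn ranged from -0.97 to 0.18 and Il1rap from -0.55 to 0.0636. For TGFβ against ex vivo, Pycard was -0.0873 on log2(TPM + 1) with or without a filter and -0.0881 on log2(TPM + 0.1), and Il1rap 0.0777 without ex vivo replicates 2 and 3. With 1 library left out, Il1rap ranged from -0.45 to 0.16 and Nlrp3 from -0.98 to 0.0085 there. The cause was not tested.

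Distinct peaks at the members within 5 kb and 50 kb numbered 44 and 128 (ATAC at 7 d), 38 and 100 (ATAC ex vivo), 15 and 41 (H3K27ac at 7 d), 16 and 48 (H3K27ac ex vivo), 19 and 50 (H3K4me2) and 39 and 113 (PU.1). Groups of 2 libraries and Il1b at 0 to 25 counts at 7 d limit precision.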
